A study of Homo sapiens with 6 samples.

Results

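The receptor tyrosine kinase ALK, its relative LTK, the ligand ALKAL2, the growth factors PTN and MDK, and the receptor phosphatase PTPRZ1 were examined in Kelly neuroblastoma cells after depletion of METTL3. These 6 genes were taken by their symbols, chosen as the ALK axis, and all 6 were found among the 19923 genes of the count tables. The series holds 6 RNA-seq libraries of poly(A) RNA. Kelly is an established human line with MYCN amplification and, per the labels, no engineered genotype. It was transfected with a control siRNA (siControl, 3 libraries) or an siRNA against METTL3 (siMETTL3, 3 libraries) and collected after 72 hours. Both groups received siRNA and transfection reagent, at a concentration the labels give as 20 μM. The labels name 1 cell line and do not say whether the libraries of a group came from separate cultures, so the tests below measure the spread between these libraries, which may be technical.

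ALK and LTK form a small family within the insulin receptor superfamily. ALKAL2, also known as augmentor alpha, is a secreted ligand that binds and activates ALK, whereas PTN (pleiotrophin) and MDK (midkine) are related heparin-binding growth factors that bind PTPRZ1 and glycosaminoglycans and have been linked to ALK signalling less directly. ALK is expressed in the developing sympathetic nervous system and is the kinase most often mutated in neuroblastoma; Kelly cells carry an activating change in its kinase domain. METTL3 is the enzyme that places N6-methyladenosine (m6A), a methyl mark on adenosines, in mRNA. The comparison addresses how the transcripts of this receptor-ligand system differ when METTL3 is lowered.

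ALK lies on chromosome 2 (chr2:29192774-29921586, minus strand, GRCh38), ALKAL2 on the same arm (chr2:279558-288851, minus strand), PTN and PTPRZ1 on chromosome 7 (chr7:137227341-137343774, minus strand, and chr7:121873089-122062036, plus strand), MDK on chromosome 11 (chr11:46380756-46383837, plus strand) and LTK on chromosome 15 (chr15:41503637-41513887, minus strand). The counted span of ALK is 728813 bases, of which the 29 exons of its canonical transcript (ENST00000389048.8, GENCODE release 44) cover 0.856%. The span of MDK is 3082 bases, and the 5 exons of its canonical transcript cover 26.9% of it. The counts were made over whole spans without regard to strand, so unspliced RNA, and any RNA from other genes within a span, adds to them. None of the 6 spans overlaps another gene of the count tables. In GENCODE release 44, the ALK span overlaps 6 other annotated genes, 4 of them lncRNA genes and 1 the protein-coding gene CLIP4. The MDK span overlaps 1, the protein-coding gene CHRM4, and the span of PTPRZ1 overlaps none.

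RefSeq (GRCh38.p14) places 2 starts in ALK, and the deposited counts cannot tell transcripts from these starts apart. Their promoter windows, each from 250 bases before the start to 50 after it, are shown because the change in ALK reported below is the sum over both. Capitals mark GGGCGG, the GC box bound by SP family factors, and CACGTG, the E-box bound by MYC family factors, each searched on both strands.
ALK first start, chr2:29921537-29921836, minus strand: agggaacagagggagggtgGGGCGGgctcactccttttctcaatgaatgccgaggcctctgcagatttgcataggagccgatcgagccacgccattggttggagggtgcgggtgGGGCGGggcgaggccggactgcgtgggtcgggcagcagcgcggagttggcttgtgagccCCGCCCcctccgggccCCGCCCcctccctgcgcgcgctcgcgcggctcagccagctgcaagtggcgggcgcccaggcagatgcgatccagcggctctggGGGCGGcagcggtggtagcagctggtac
ALK second start, chr2:29223774-29224073, minus strand: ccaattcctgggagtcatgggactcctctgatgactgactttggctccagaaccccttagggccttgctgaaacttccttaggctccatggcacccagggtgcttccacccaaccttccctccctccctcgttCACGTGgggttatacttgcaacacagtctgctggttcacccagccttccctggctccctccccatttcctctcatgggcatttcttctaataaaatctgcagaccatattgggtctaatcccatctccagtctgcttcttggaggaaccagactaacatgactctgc
The first window is 71% G and C and holds 5 matches to GGGCGG, which 45.0% of all 35116 RefSeq promoter windows hold, and none to CACGTG. The second start lies in the intron between exons 19 and 20 of the canonical transcript, so that 34.3% of the exon bases follow it; its window holds 1 CACGTG, as do 7.26% of all windows. A match is a description of the letters, not a binding site. Of the 6 members, 5 have an entry in the promoter table, and MDK has none.

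METTL3 adds m6A most often within a short consensus whose best known form is GGACT. The 25-base windows below show, for each member, the GGACT (capitals) closest to the stop codon in the GENCODE release 44 canonical transcript, in the sense direction and with GRCh38 coordinates. They are shown because METTL3 was the targeted enzyme; methylation itself was not measured in these libraries.
ALK, chr2:29275404-29275428, minus strand: ccatcagcctGGACTgctacctcac
LTK, chr15:41503958-41503982, minus strand: ctgagggtaaGGACTgaggcactga
ALKAL2, chr2:287630-287654, minus strand: tcctcgggcgGGACTgcgccctggg
PTN, chr7:137227807-137227831, minus strand: ttataataaaGGACTgtaatcttat
MDK, chr11:46383478-46383502, plus strand: ggaagggaaaGGACTagacgccaag
PTPRZ1, chr7:122055053-122055077, plus strand: ttataattcaGGACTttatcttaga
The only GGACT of the MDK transcript runs into its stop codon, with the A 4 bases before the last base of that codon. The ALK transcript holds 8, of which 6 are in the coding sequence and 0 in the 3′ untranslated region, and the closest lies 2965 bases before the end of the stop codon. LTK holds 7, 1 of them 26 bases after the stop codon, and PTN holds 3, the closest 201 bases after it. Per kilobase of transcript this gives 1.28 for ALK, 1.20 for MDK, 2.28 for LTK, 2.02 for PTN, 0.845 for ALKAL2 and 0.370 for PTPRZ1. The median over 14591 transcripts of tested genes was 0.929 per kilobase, with quartiles of 0.563 and 1.39, and 91.3% of those transcripts held at least 1 GGACT.

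The libraries held 15430000 to 21565013 counts, the lowest in siControl replicate 3. METTL3, the targeted gene, fell from 54.2 ± 1.80 to 33.04 ± 1.27 CPM (counts relative to the scaled library size; SD, n = 3), a ratio of 0.610 to the control level (edgeR quasi-likelihood test, FDR 4.68e-06). The METTL3 span overlaps that of TOX4, whose log2 fold change was -0.20, and reads over both were given to each. FDR values here are Benjamini-Hochberg adjusted over all 15311 genes tested, and 37.8% of those genes passed the threshold of 0.05 in either direction. Over 8 noradrenergic markers the summed level was between 3188 and 3427 CPM in siControl and between 4256 and 4620 CPM in siMETTL3. Over the 8 Schwann and glial markers that were found of 9 listed, the summed level was between 18.1 and 19.8 CPM in siControl and between 25.8 and 28.6 CPM in siMETTL3; FABP7 was at 0 in every library and S100B was not expressed highly enough to be tested. Over 10 mesenchymal markers it was between 269.9 and 285 CPM in siControl and between 229 and 248 CPM in siMETTL3, but of the 9 tested, 3 were called higher (VIM, PRRX1 and COL1A1) and 2 lower. Those 2 were FN1, from 81.3 to 42.7 CPM, and TWIST1, from 125 to 102 CPM, which together held most of the summed level. The part of these differences in the results below was not tested.

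In the METTL3-depleted libraries the receptor ALK and the growth factor MDK differed from the controls in opposite directions. ALK rose 1.69-fold and MDK fell 1.49-fold, while PTN, ALKAL2 and LTK did not pass the test and PTPRZ1 was nearly undetected. Of the 6 members, 5 passed the filter on low counts; 1 was called higher and 1 lower, and 3 were not called, against a background of 37.8% of all genes called (18.6% higher and 19.2% lower). In 3 of the 5, ALK, MDK and LTK, the CPM values of one group lay entirely to one side of the other group. This was also the case for 49.9% of all tested genes. LTK is counted here although it entered the test through the group where it was higher. Its raw counts had the value 12 in both groups. The members' counts are close to these shares and show nothing particular to them.

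**Figure D1:**
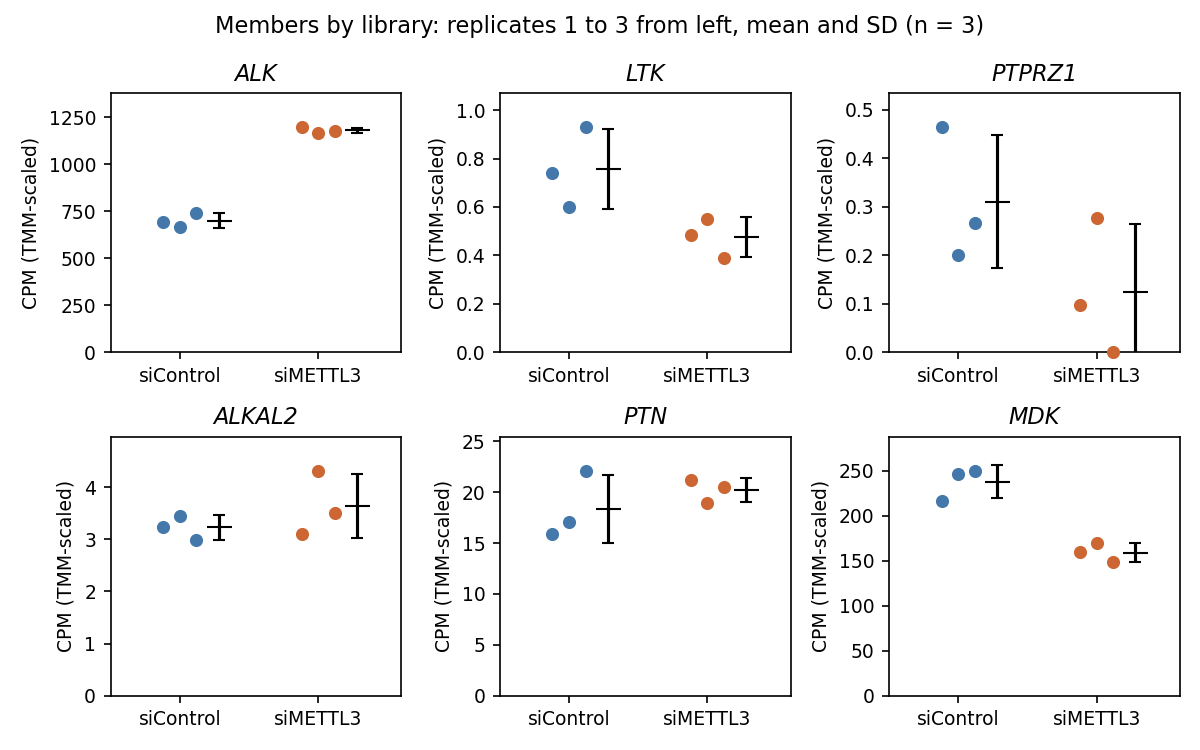
Level of each member in CPM on TMM-scaled library sizes, on a linear axis from 0, in each siControl (blue) and siMETTL3 (orange) library; the bar gives the mean and SD (n = 3). The 3 siMETTL3 libraries lie above all siControl libraries for ALK and below them for MDK, and the groups overlap for ALKAL2, PTN and PTPRZ1.

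ALK drew a large number of counts over its long span, introns included. In siControl the libraries held 14953, 13265 and 11171 counts of it, and in siMETTL3 24644, 25422 and 24168. These correspond to 693, 664 and 741 CPM in siControl and to 1198, 1168 and 1177 CPM in siMETTL3. Every siMETTL3 library lay far above every siControl library, and the siMETTL3 libraries were close to each other. The mean rose from 699.5 ± 39.1 to 1181 ± 15.3 CPM (SD, n = 3), which is 0.76 on the log2 scale (SE 0.059, edgeR quasi-likelihood test, FDR 6.21e-07). ALK ranked between 63 and 74 among all genes by raw count, without regard to length, in the siControl libraries and at 19 or 20 in the siMETTL3 libraries. Its share of the counts was 0.0661% to 0.0724% in siControl and 0.118% to 0.120% in siMETTL3. Among the 37 genes with at least its mean level, 4 had a larger log2 fold change, and over all tested genes 94.7% had a smaller one.

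The rise of ALK did not depend on 1 library. Its log2 fold change lay between 0.72 (without siControl replicate 2) and 0.80 (without siControl replicate 3) over the 6 fits that left out a library. Since the counts include introns and ALK spans 729 kb, the gene's span was also taken into account. Among tested genes, the share called higher was 7.89% for the 1254 genes shorter than 5 kb, 26.7% for the 4673 genes of 50 to 200 kb and 23.9% for the 318 genes of at least 500 kb. The shares called lower in the same classes were 28.4%, 14.3% and 21.1%. In the longest class the median log2 fold change was 0.0029, and 20 of the 318 genes had a larger value than ALK. With an offset for gene span in the model, the log2 fold change of ALK was 0.70 (edgeR FDR 8.95e-08) and that of MDK was -0.49 (edgeR FDR 1.03e-05).

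**Figure D2:**
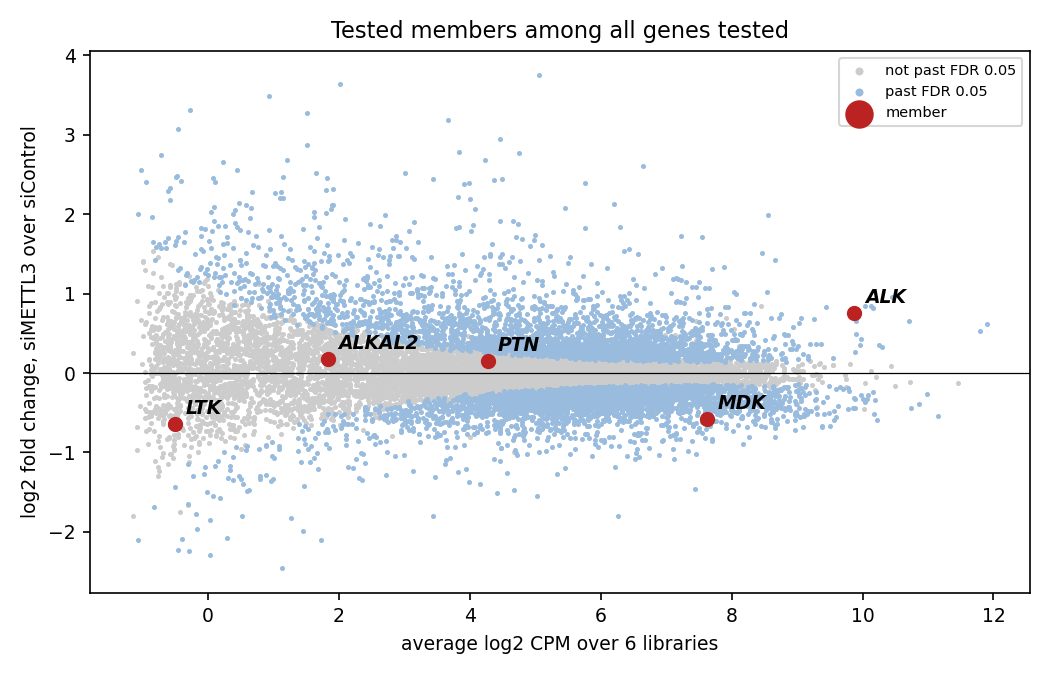
Log2 fold change of siMETTL3 over siControl against the average log2 CPM over the 6 libraries, for all 15311 tested genes (grey, not past an FDR of 0.05; blue, past it) and the 5 tested members (red). ALK at 0.76 and MDK at -0.58 lie outside the grey band at their levels, whereas ALKAL2, PTN and LTK lie within it.

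LTK, the receptor most closely related to ALK, was scarcely expressed. Its counts were 16, 12 and 14 in siControl and 10, 12 and 8 in siMETTL3. In CPM the siControl values were 0.742, 0.601 and 0.929 and the siMETTL3 values 0.486, 0.551 and 0.390, so that the groups did not overlap. Its log2 fold change, -0.64 (SE 0.42), was not past the threshold (edgeR FDR 0.255). LTK met the count filter in 3 siControl libraries and in 1 siMETTL3 library, and thus entered the test through the group where it was higher. The ratio of its summed counts, 30 against 42 and scaled for library size, was 0.643 with an exact 95% binomial interval of 0.389 to 1.05. Of all counts from 1 to 20 in these libraries 75.9% were even, as were all 6 counts of LTK, and the counting did not set the option that counts a read pair once, so both reads of a pair may each have been counted. On halved counts, 15 against 21, the interval was 0.308 to 1.31. These intervals cover counting error only.

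ALKAL2, the ligand of ALK and LTK, was expressed at a low level. Its counts were 70, 69 and 45 in siControl and 64, 94 and 72 in siMETTL3. Scaled to library size these were 3.25, 3.45 and 2.99 CPM against 3.11, 4.32 and 3.51 CPM. The groups overlapped, with siMETTL3 replicate 1 below 2 of the siControl libraries. The estimated log2 fold change, 0.17 (SE 0.20), was not past the threshold (edgeR FDR 0.539), and the ratio of summed counts was 1.13 with an exact 95% interval, for counting error only, of 0.923 to 1.37, or of 0.848 to 1.497 on halved counts. ALKAL1, the other ligand of the family, had 17 to 30 counts in siControl and 24 to 40 in siMETTL3 (log2 fold change 0.29, edgeR FDR 0.539).

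PTN was expressed at an intermediate level, and its siControl libraries were spread widely. The siControl libraries held 342, 341 and 333 counts, or 15.9, 17.1 and 22.1 CPM. The siMETTL3 libraries held 437, 412 and 421 counts, or 21.2, 18.9 and 20.5 CPM. The groups overlapped, since siControl replicate 3 was the highest of the 6 libraries and the other siControl libraries were the lowest. With all libraries the difference was 0.15 on the log2 scale (SE 0.12) and was not called (edgeR FDR 0.351). Without siControl replicate 3 it was 0.30 and past the threshold (edgeR FDR 0.0251), so the call for PTN rests on that library, which was also the shallowest.

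MDK, the other growth factor, was by far the more abundant of the pair and fell. Its counts were 4665, 4916 and 3764 in siControl and 3279, 3680 and 3046 in siMETTL3. These were 216, 246 and 249.8 CPM in siControl against 159, 169 and 148 CPM in siMETTL3. All 3 siMETTL3 libraries lay below all 3 siControl libraries. The mean went from 237 ± 18.4 to 159 ± 10.4 CPM (SD, n = 3), which is -0.58 on the log2 scale (SE 0.069, edgeR quasi-likelihood test, FDR 2.60e-05). Leaving out each library gave values from -0.64 to -0.53. Among the 989 genes with at least its mean level, 35 had a smaller log2 fold change.

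PTPRZ1, the phosphatase receptor of PTN and MDK, had 10, 4 and 4 counts in siControl and 2, 6 and 0 in siMETTL3. No library reached the level of 0.490 CPM that the filter asks for in at least 3, so it was not tested. Its summed counts were 18 in siControl and 8 in siMETTL3, a scaled ratio of 0.400 with an exact 95% binomial interval of 0.151 to 0.967 for counting error only. All 6 of its counts were even, and on halved counts, 4 against 9, the interval was 0.0900 to 1.43, so no difference was detectable at this depth. The groups overlapped. When no filter was applied, PTPRZ1 gave -1.28 on the log2 scale (SE 0.92, edgeR FDR 0.335).

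**Figure D3:**
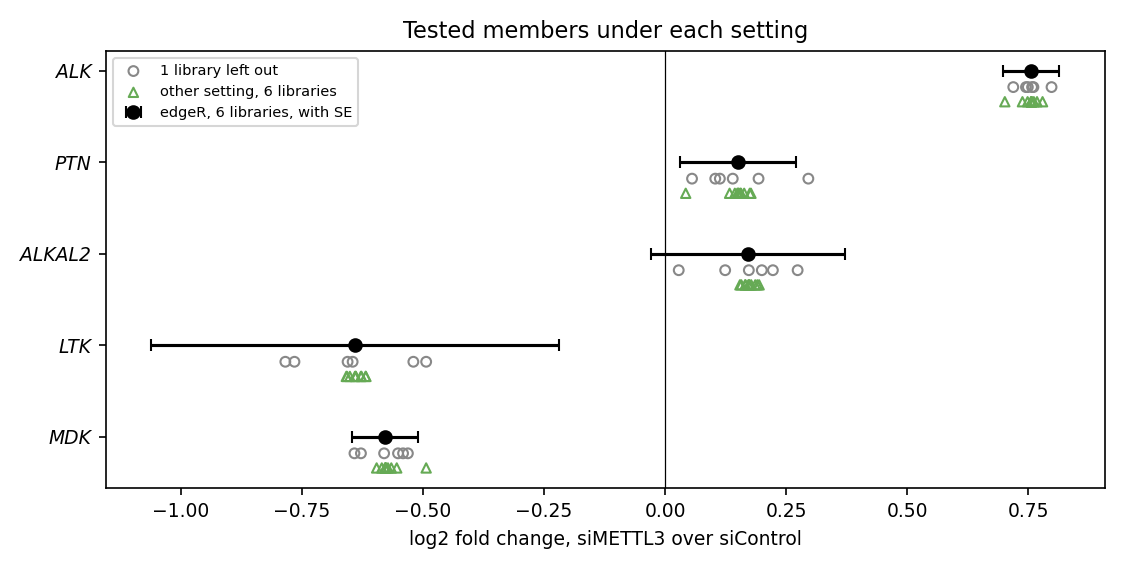
Log2 fold change of siMETTL3 over siControl for the 5 tested members: black points and bars give the edgeR estimate with 6 libraries and its SE, open circles the 6 fits that each left out 1 library, and open triangles the other settings. ALK stays between 0.70 and 0.80 and MDK between -0.64 and -0.49, while PTN ranges from 0.042 to 0.30.

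Levels were compared between the members per kilobase of exon in the canonical transcript. In siControl the order was MDK at 286 ± 22.1, ALK at 112 ± 6.27, PTN at 12.4 ± 2.23, ALKAL2 at 2.73 ± 0.198, LTK at 0.246 ± 0.0537 and PTPRZ1 at 0.0382 ± 0.0169 CPM per kilobase (SD, n = 3). No neighbours in this order overlapped between libraries. In siMETTL3 the order was the same, but MDK at 191 ± 12.5 and ALK at 189 ± 2.45 CPM per kilobase overlapped. The lower members were PTN at 13.6 ± 0.797, ALKAL2 at 3.08 ± 0.520, LTK at 0.155 ± 0.0265 and PTPRZ1 at 0.0153 ± 0.0172. Because intronic reads count towards every member, these values are not those of mature mRNA alone. Exons of the canonical transcript cover 0.856% of the span of ALK, 1.27% for PTN and 4.29% for PTPRZ1. They cover 12.7% for ALKAL2, 26.9% for MDK and 30.0% for LTK. Per kilobase of the whole span, ALKAL2 at 0.347 ± 0.0252 stood above PTN at 0.158 ± 0.0284 CPM per kilobase in siControl, and MDK at 77.0 ± 5.96 stood above ALK at 0.960 ± 0.0537.

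The balance of receptor and growth factor was followed within each library as a ratio of raw counts, which no scaling between libraries can move. The ratio of ALK to MDK was 3.21, 2.70 and 2.97 in siControl and 7.52, 6.91 and 7.93 in siMETTL3. It thus rose in every comparison of a siMETTL3 with a siControl library, from a mean of 2.96 ± 0.254 to 7.45 ± 0.516 (SD, n = 3), or 2.52-fold. The ratio of PTN to MDK rose 1.66-fold, from 0.0770 ± 0.0101 to 0.128 ± 0.0140, and that of ALK to PTN 1.52-fold, again without overlap. For each of these ratios the exact two-sided permutation test gave p = 0.1, the smallest that 3 against 3 libraries allow, and 0.133 after adjustment over the 4 ratios examined. Against MYCN, the amplified oncogene on the same chromosome arm, the ratio of ALK was 0.232 ± 0.0235 in siControl and 0.255 ± 0.0127 in siMETTL3, and the groups overlapped (exact permutation p = 0.3).

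**Figure D4:**
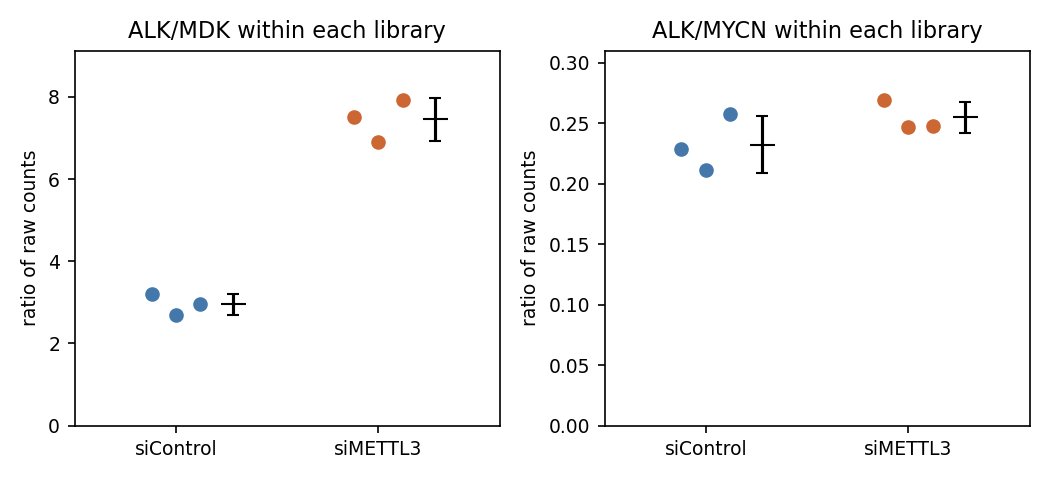
Ratio of raw counts of ALK to MDK (left) and of ALK to MYCN (right) in each library, on linear axes from 0, with the mean and SD (n = 3). The ALK to MDK ratio lies between 2.70 and 3.21 in siControl and between 6.91 and 7.93 in siMETTL3, while the ALK to MYCN ratio overlaps between the groups.

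Of the 12 genes nearest to the members, 1 on each side, ITPKA and CHRM4 were not tested. Among the others 2 were called, both lower, where 37.8% of all tested genes were called in either direction. These 2 lie beside ALKAL2 and PTPRZ1. CLIP4, which ends 3131 bases from ALK in the count tables, had a log2 fold change of 0.15 (edgeR FDR 0.0917), and YPEL5, on the other side, one of -0.063 (edgeR FDR 0.542). Of the 14 tested genes within 1 Mb of ALK, 5 were called higher and 0 lower, with log2 fold changes from -0.16 to 1.23 and a median of 0.16. Within 1 Mb of MDK, 4 of 23 tested genes were called higher and 1 lower. Over all tested genes 18.6% were called higher and 19.2% lower, and whether these windows differ from those shares was not tested. DGKZ, 202 bases before MDK, had 0.17 (edgeR FDR 0.167), and CHRM4 on the other side was not expressed highly enough to be tested. Beside ALKAL2, ACP1 fell by 0.30 on the log2 scale (edgeR FDR 0.00307) and TMEM18 had 0.0015 (edgeR FDR 0.991). Beside PTN, CHRM2 had 0.39 (edgeR FDR 0.140) and DGKI -0.18 (edgeR FDR 0.0553). ITPKA, beside LTK, was not tested, and RPAP1 had -0.098 (edgeR FDR 0.243). FAM3C, the nearest gene before PTPRZ1, fell by 0.28 (edgeR FDR 0.00320), and AASS after it had -0.73 at a mean below 1 CPM in both groups (edgeR FDR 0.283).

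Across the 6 libraries, the genes whose log2 CPM followed ALK most closely, among genes whose average was 3 or more on that scale, were CLSTN2, NRXN3 and KALRN (Pearson r 0.9996, 0.9996 and 0.9992). They span 642, 1698 and 646 kb and rose with log2 fold changes of 1.42, 1.53 and 0.44. Closest to MDK were SSNA1, CFAP57 and TSEN54 (r 0.9981, 0.9981 and 0.9969), with log2 fold changes of -0.50, -0.55 and -0.48. For PTN they included VWA8 and WASL (r 0.9875 and 0.9873). For ALKAL2 they were CFAP410, PPP1R18 and ADAMTS13 (r 0.9887, 0.9818 and 0.9806), and for LTK they were OGFOD1, PHF1 and ZBTB21 (r 0.9956, 0.9952 and 0.9948). These correlations are over 6 libraries in 2 groups that share depth and treatment, and 80 genes reached 0.99 or more with ALK, so they are descriptions only.

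Other genes of the pathway came from lists chosen by function. Among 23 co-receptors and binding partners of the ligands, all of them tested, 3 were called higher and 5 lower (34.8% against 37.8% of all genes), with a median log2 fold change of -0.044 against -0.0021 over all genes. ITGAV and ITGB1, integrin subunits, fell from 125 ± 9.85 to 62.2 ± 4.47 CPM and from 128 ± 6.71 to 79.8 ± 3.72 CPM (log2 fold changes -1.01 and -0.69, edgeR FDR 3.40e-07 and 2.56e-06). SDC3, a syndecan that binds PTN through its heparan sulphate chains, rose from 68.9 ± 11.6 to 104 ± 3.85 CPM (0.59 on the log2 scale, edgeR FDR 7.11e-04). Another syndecan, SDC1, was called lower, from 78.9 ± 5.27 to 64.5 ± 2.56 CPM (edgeR FDR 0.00352), and SDC2 and SDC4 were not called. The called genes of this list thus moved in both directions, with SDC3, PTPRF and PTPRG higher and ITGAV, ITGB1, NRP1, SDC1 and NCL lower.

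Of the other kinases in the insulin receptor superfamily that were examined, IGF1R, INSR and INSRR did not pass the test. IGF1R, the receptor of insulin-like growth factors, was at 219 ± 11.4 CPM in siControl and 236 ± 4.66 CPM in siMETTL3 (log2 fold change 0.11, edgeR FDR 0.155). INSR and INSRR had means of 1.45 to 2.25 CPM, with log2 fold changes of -0.48 and 0.25 (edgeR FDR 0.242 and 0.614), and the span of INSRR overlaps another gene of the count tables. ROS1 was not expressed highly enough to be tested. Differences between the fold changes of ALK and these receptors were not tested.

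Among 30 adaptors and proximal effectors of ALK, 29 were tested. Of these, 6 were called higher and 5 lower (37.9% called, against 37.8% of all tested genes), and the median was -0.0023 on the log2 scale. With the offset for gene span, 11 were lower. The one called member with an absolute log2 fold change of at least 0.5 was PIK3R1, the regulatory subunit of phosphatidylinositol 3-kinase. It rose from 73.4 ± 8.02 to 119 ± 3.10 CPM (0.70 on the log2 scale, SE 0.074, edgeR FDR 9.47e-06).

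The 28 transcripts listed as reported downstream of ALK activity in neuroblastoma were split. Of 27 tested, 5 were called higher and 8 lower (48.1% called, against 37.8% of all tested genes), and the median was 0.023 on the log2 scale. Whether the list differs from that share was not tested. MYCN rose from 3021 ± 134 to 4638 ± 169 CPM (0.62 on the log2 scale, edgeR FDR 5.17e-06). SPRY4, a feedback inhibitor of receptor tyrosine kinase signalling, and ETV4, an ETS transcription factor whose span overlaps DHX8, rose with log2 fold changes of 0.97 and 1.02 (edgeR FDR 2.97e-06 and 2.26e-04). ETV5, whose span overlaps DGKG, and ETV1 were instead called lower, with log2 fold changes of -0.314 and -0.310 (edgeR FDR 0.00103 and 0.0191). CCND1, which encodes cyclin D1 and overlaps LTO1, rose with 0.51 (edgeR FDR 1.16e-05). DUSP6, a phosphatase that inactivates ERK and is induced by it, fell from 34.8 ± 4.41 to 17.3 ± 0.463 CPM (-1.01 on the log2 scale, edgeR FDR 5.79e-06). EGR1, an immediate early transcription factor, fell from 3.79 ± 1.11 to 1.05 ± 0.0667 CPM (-1.83 on the log2 scale, edgeR FDR 2.39e-04). NPY and FOS, both at low levels, had log2 fold changes of -1.06 and -0.73 (edgeR FDR 0.0243 and 0.0498). The calls of NPY and FOS were lost under other settings: NPY when siControl replicate 2 (edgeR FDR 0.0983), replicate 1 of siMETTL3 (edgeR FDR 0.100) or its replicate 3 (edgeR FDR 0.0840) was left out, and FOS under all 3 other scalings, with limma-voom, without the robust option, with the span offset and in 4 of the fits that left out a library (edgeR FDR up to 0.183). Without siMETTL3 replicate 1, 5 transcripts of the list were lower instead of 8. SPRY4 and DUSP6, feedback inhibitors of the ERK pathway that ERK itself induces, thus moved in opposite directions.

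**Figure D5:**
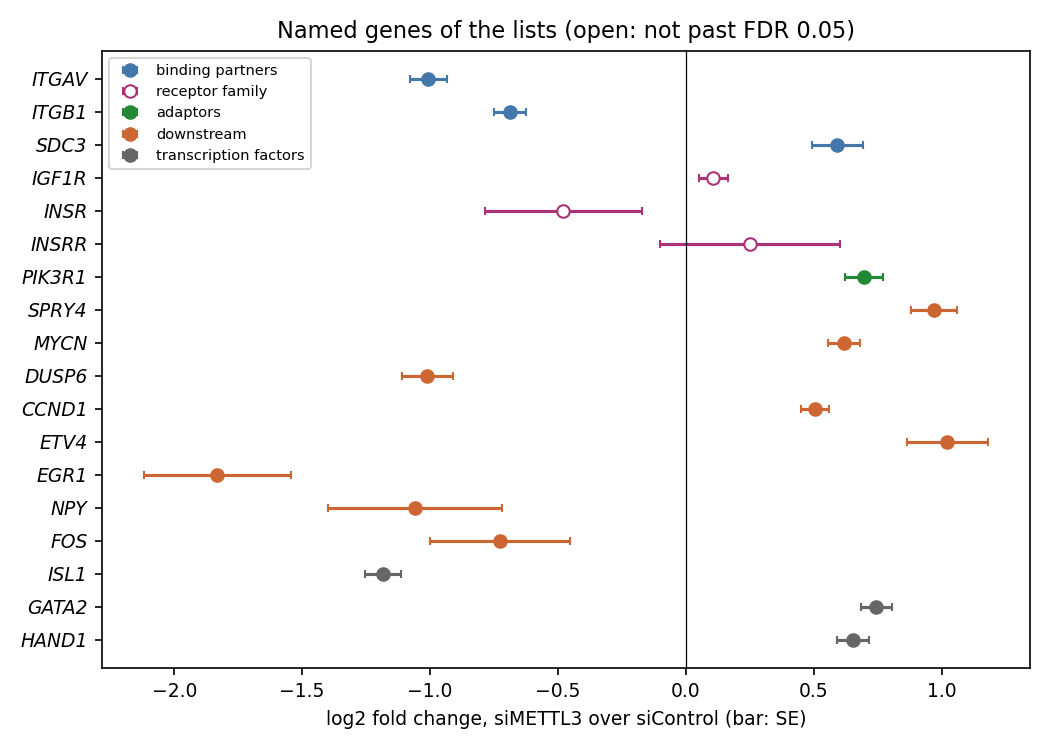
Log2 fold change of siMETTL3 over siControl, with its SE, for the genes of the 5 lists that the naming rule gives, coloured by list; open points are not past an FDR of 0.05. SPRY4 and ETV4 lie near 1 and DUSP6 and EGR1 at -1.01 and -1.83 within the downstream list.

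Of 14 transcription factors of the noradrenergic circuit, which include regulators of ALK, 4 were called higher and 2 lower (42.9% called, against 37.8% of all tested genes). Their median was 0.030 on the log2 scale. GATA2 and HAND1 rose from 321 ± 19.5 to 539 ± 24.8 CPM and from 118 ± 9.10 to 185 ± 3.94 CPM (log2 fold changes 0.75 and 0.65, edgeR FDR 1.22e-06 and 4.10e-06). ISL1, a LIM homeodomain factor, fell from 103 ± 6.13 to 45.5 ± 3.50 CPM (-1.18 on the log2 scale, edgeR FDR 6.06e-08). The lower count of this list depended on the library: it was 4 without siControl replicate 3 and 1 without siControl replicate 2 or any 1 of the siMETTL3 libraries.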

How the data were processed

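The deposited values are raw read counts per gene, 1 table for each library, made by the authors with featureCounts v1.5.3 on a GENCODE release 33 annotation of protein-coding genes, per the file headers. Counting was over whole genes, reads over several genes were given to each, and no strand option was set, per the file headers. The option that counts a read pair once was not set either, so both reads of a pair may have been counted. The submitters' processing notes name Trimmomatic 0.36, HISAT2 2.1.0 and GRCh38. The deposited gene lengths (Length, another kind of value) are those of the counted spans.

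The 2 groups were compared with edgeR 4.0.16 in R 4.3.3 (filterByExpr, TMM, robust quasi-likelihood F-test, 6 libraries, no covariate), with an FDR threshold of 0.05 over all genes. The SE of a log2 fold change is its size over the square root of the F statistic. Members and lists were chosen with earlier results of these data known. Named genes are the members, METTL3, ALKAL1, the nearest genes, the 3 most correlated genes, and, from each list, called genes with an absolute log2 fold change of at least 0.5 or else the 3 with the smallest FDR; a gene that this rule gives is not reported here. Some further list genes, such as ETV1, ETV5 and SDC1, are given only beside a named gene. Alternatives included DESeq2 1.42.0 and limma-voom (limma 3.58.1). No pair of libraries in a group agreed within sampling noise (chi-square per degree of freedom 3.05 to 16.1).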

Additional observations from a re-analysis of the deposited data

How the results depend on the processing

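ALK, MDK and METTL3 kept their direction and stayed past the threshold under all 17 alternatives. Leaving out each library in turn gave log2 fold changes of 0.72 to 0.80 for ALK, -0.64 to -0.53 for MDK and 0.055 to 0.30 for PTN, whose call appeared only without siControl replicate 3, when 2 members were higher. ALKAL2 and LTK passed the threshold in none. LTK had a log2 fold change of -0.64, and its counts of 8 to 16 limit what could be detected, as do those of PTPRZ1. With overlapping genes left out, 1852 were higher and 1899 lower of 9517 tested, because fewer genes entered, and 3 transcripts of the downstream list were higher. With the gene span offset, 37.8% of the called genes were higher against 49.2% before, 3754 were lower, and 11 adaptors were lower; the cause was not tested.

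The 2 lower transcription factors became 1 with upper quartile or total count scaling, DESeq2 or limma-voom, and went from 1 to 4 over the fits that left out a library. The downstream list had 5 to 9 lower members over those fits, and the insulin receptor family 0 to 1 higher. INSRR went from -0.093 (without siControl replicate 1, a change of sign) to 0.60, past the threshold in none. Of 303 other values for the 18 list genes that the naming rule gives, 288 kept their call, 13 became weaker and 1 stronger.

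With the replicate block, the log2 fold changes of ALK and MDK were 0.76 and -0.58, and 6166 genes were called against 5786. Deviations from the group means correlated with 0.040, 0.049 and 0.067 for libraries of the same number, and with -0.064 to 0.026 for others. The values for the same number were small but above all the others. Whether the numbers mark pairs was not tested, and the main fit treated the libraries as unpaired.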
